A study of Mus musculus with 9 samples.

Results

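In brown adipose tissue, 1265 PPARγ binding sites had the crest of a fitted 24-h rhythm of PPARγ signal around the middle of the dark phase. These midnight-phase peaks were chosen from the counts themselves. Reads per peak were divided by median-of-ratios size factors, transformed to log2 and fitted with a 24-h cosine, and a peak was kept when its mean raw count was at least 100, its amplitude at least 0.3 on the log2 scale, its R2 at least 0.7 and its phase from 15 h to before 21 h. The amplitude is the distance from the mean of the cosine to its crest, the phase is the hour of the crest, and R2 is the share of the variance over the 8 libraries that the cosine takes up. Of all 66066 peaks, 52193 had the required mean count, and 2.42% of those were selected. By the same limits, 1872 peaks had a midday phase (3 to before 9 h), 1516 a dusk phase (9 to before 15 h) and 630 a dawn phase (21 to before 3 h).

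The data are PPARγ ChIP-sequencing libraries of interscapular brown adipose tissue (iBAT) from chow-fed male C57BL/6J mice of 10 weeks, housed at 22 °C in a cycle of 12 h light and 12 h dark, where Zeitgeber Time (ZT) 0 is lights on. Tissue of several mice was pooled every 3 h from ZT0 to ZT21 and 1 library was made per pool (8 mice by the ChIP method, 4 per time point by the account of the animals). By the labels, the 8 groups differ by time of day alone, with no other treatment and no genotype, and none is replicated. Time of day therefore cannot be told apart from differences between the pools or their library preparation. Between 29572225 and 34264812 reads were counted in peaks per library. With 1 library per time point, the spread between pools is unknown. Every interval given covers counting error only, while values after ± are standard errors from the scatter of the 8 libraries around the cosine. In whole tissue, a change in the number of cells with a bound site and a change in binding per cell cannot be told apart. Tested peaks lay nearest to 5 of 6 brown adipocyte marker genes (42 peaks, 0 of them midnight-phase), but also to 5 of 6 endothelial ones (27 peaks) and 0 of 6 leukocyte ones, and peak positions do not check the tissue label.

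PPARγ is the nuclear receptor that directs adipocyte differentiation and lipid storage. Its partner on DNA is the retinoid X receptor, and the pair typically sits at a DR1 element, a direct repeat of AGGTCA with 1 base between the copies. Time of day reaches the genome through other elements as well. The D-box is bound by the rhythmic activators DBP, TEF and HLF and by the repressor NFIL3, and the ROR response element (RORE) is bound by the activating ROR receptors and the repressing REV-ERB receptors, whose levels cycle in adipose tissue.

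The sequences below show these elements in the midnight-phase peaks, since the share of peaks with a D-box or an RORE varied with phase. All are from RefSeq GRCm38.p6, the build of the files (mm10), written 5′ to 3′ on the strand of the element, with the element in capitals. The first 5 hold a D-box, searched as TTATGNAA, and belong to peaks of large amplitude. They lie in intron 14 of Cdc42bpa (chr1:180101741-180101770, reverse strand), upstream of Ndufb4 (chr16:37676126-37676155, forward strand), upstream of Cstf2 (chrX:134049391-134049419, forward strand), in intron 33 of Fer1l6 (chr15:58639879-58639908, forward strand) and upstream of Ctsl (chr13:64401058-64401087, reverse strand).
Cdc42bpa: tagcagcactgTTATGTAAtttccctttga
Ndufb4: gatttacaggcTTATGTAAcgccccagtga
Cstf2: ataaggaggcTTATGTAAtggccctaggt
Fer1l6: agccctgtcttTTATGCAAgctgtgcttat
Ctsl: acccccagcatTTATGCAAagactccgtca

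The next 4 hold an RORE, searched as AANT directly followed by AGGTCA, and belong to the RORE-holding peaks named later. They lie in intron 1 of Cry1 (chr10:85161962-85161983, reverse strand, cut short by the edge of the searched window), in intron 5 of Camta1 (chr4:151339726-151339755, reverse strand), in intron 5 of Pdhx (chr2:103038021-103038050, forward strand) and upstream of Hif1a (chr12:73872598-73872627, reverse strand).
Cry1: acagactagaAAGTAGGTCAtt
Camta1: gcgttctgggAACTAGGTCActgggctaca
Pdhx: gtgcttgagaAATTAGGTCAaggagaacct
Hif1a: gcttgattctAAGTAGGTCAgcactgagct

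The last 3 are from peaks named for a DR1 with few mismatches, the element of PPARγ itself. They lie 516 bases upstream of Crybg2 (chr4:134068041-134068069, forward strand, 0 mismatches), in intron 1 of Ak4 (chr4:101419560-101419588, reverse strand, 1 mismatch) and in intron 3 of Dpf3 (chr12:83344776-83344804, reverse strand, 1 mismatch).
Crybg2: ttgcttagAGGTCACAGGTCAccttgcta
Ak4: gccctctgGGGTCAGAGGTCAgtcagacc
Dpf3: cttctggaAGGACAGAGGTCAtcttctat

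For wider context, the 300 bases at the centre of the Cdc42bpa peak (chr1:180101493-180101792) and of the Cry1 peak (chr10:85161962-85162261) follow on the forward strand, with the reverse complement of the D-box and of the RORE in capitals.
Cdc42bpa window: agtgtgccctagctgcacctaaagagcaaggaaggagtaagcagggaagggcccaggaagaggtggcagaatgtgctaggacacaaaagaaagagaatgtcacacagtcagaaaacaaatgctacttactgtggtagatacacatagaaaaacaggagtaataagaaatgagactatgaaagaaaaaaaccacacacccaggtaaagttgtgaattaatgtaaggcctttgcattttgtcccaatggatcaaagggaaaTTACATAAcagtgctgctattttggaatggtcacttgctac
Cry1 window: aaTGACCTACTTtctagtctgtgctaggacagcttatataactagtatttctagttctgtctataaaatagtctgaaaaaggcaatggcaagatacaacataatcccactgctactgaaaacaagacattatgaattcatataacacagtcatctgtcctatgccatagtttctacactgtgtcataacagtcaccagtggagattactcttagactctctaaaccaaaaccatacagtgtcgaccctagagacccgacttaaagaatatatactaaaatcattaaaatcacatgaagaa

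Most midnight-phase peaks had modest amplitudes. Their median amplitude was 0.38 on the log2 scale (range 0.30 to 1.01), which corresponds to a median 1.68-fold difference between crest and trough of the cosine, and the median ratio of the highest to the lowest normalized count was 1.87 (range 1.44 to 4.67). An amplitude of at least 0.5 was reached by 177 peaks (13.99%), and 200 peaks (15.8%) had an R2 of at least 0.9. The counting error of the amplitude had a median of 0.055 on the log2 scale, and the residual scatter around the cosine gave a median standard error of 0.081. These values were used for the selection and are given as a description.

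As a share of each peak's mean over the 8 libraries, the median normalized count was 1.00 at ZT0, then 0.836, 0.750 and 0.836 at ZT3, ZT6 and ZT9, and 0.967, 1.26, 1.24 and 1.06 at ZT12, ZT15, ZT18 and ZT21. The highest library was ZT15 for 574 peaks, ZT18 for 512, ZT21 for 81, ZT0 for 73 and ZT12 for 25. The lowest was ZT6 for 675 peaks, ZT3 for 274, ZT9 for 235, ZT12 for 63 and ZT0 for 18. The minimum thus fell at ZT3, ZT6 or ZT9 for 1184 members (93.6%), and the maximum at ZT15 or ZT18 for 1086 (85.8%). A 24-h cosine fitted with edgeR's quasi-likelihood test called 979 of the 1265 (77.4%) at a Benjamini-Hochberg adjusted p under 0.05. Of all 66066 peaks, low counts included, 13.4% were called at any phase and 2.62% with a phase in the same window. Run on the 52193 peaks with a mean raw count of at least 100 alone, it called 7887, of which 1580 were in the window. That test uses the contrast by which the peaks were chosen, so nothing is read from it.

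**Figure D1:**
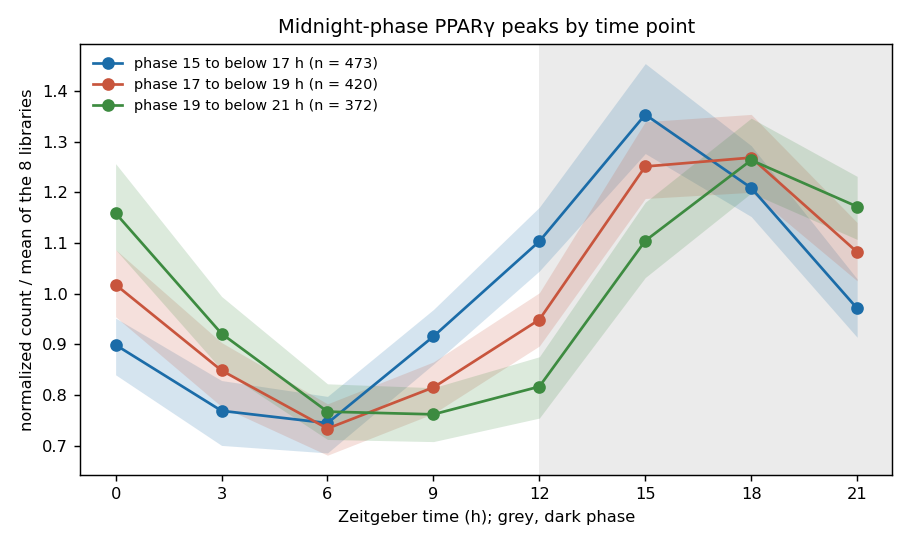
Normalized count of the midnight-phase peaks as a ratio to each peak's mean over the 8 libraries (y axis) at each Zeitgeber time in h (x axis), for peaks with a phase of 15 to before 17 h, 17 to before 19 h and 19 to before 21 h. Points are medians over peaks, bands span the lower to upper quartile over peaks, and the grey area is the dark phase; the earliest group is highest at ZT15 (1.35) and the latest at ZT18 (1.26).

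Splitting the peaks by phase, a division made after the values were seen, gave 473 peaks with a phase of 15 to before 17 h, 420 of 17 to before 19 h and 372 of 19 to before 21 h. The earliest group stood at 1.10 times its mean at ZT12 and 0.899 times at ZT0. The latest group was still low at ZT12, at 0.817 times its mean, and remained at 1.16 times at ZT0. The 3 groups were alike in strength, with median mean normalized counts of 181, 188 and 181 and median amplitudes of 0.40, 0.36 and 0.37. They differed in GC content (medians of 44.3, 46.0 and 47.3%) and in the share within 1 kb of a start site (5.07, 12.4 and 11.3%), neither of which entered the rule.

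The D-box was found in 144 of the 1265 midnight-phase peaks (11.4%), compared with 6.22% of all 52187 tested peaks with sequence, when 300 bases at each peak centre were searched on both strands. The share was 25.9% in dusk-phase, 4.22% in midday-phase and 3.17% in dawn-phase peaks. Within the midnight-phase peaks it fell along the phase, from 70 of 288 peaks (24.3%) at 15 to before 16 h, through 14.1, 9.33, 5.13 and 4.71% in the following hours, to 8 of 181 (4.42%) at 20 to before 21 h. The first hour of the window was thus near the dusk-phase peaks in this feature, and the last 3 h were below the share of all peaks.

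The base left free in the search (N) differed between groups. TTATGTAA was held by 65 midnight-phase peaks (5.14%), compared with 1.92% of all tested peaks and 18.8% of dusk-phase peaks. TTATGCAA, which also matches the C/EBP letters TTGCNNAA read on the other strand, was held by 28 (2.21%, compared with 1.62% of all), TTATGAAA by 40 (3.16%, compared with 2.03%) and TTATGGAA by 17 (1.34%, compared with 0.878%). C/EBP letters as such were held by 249 midnight-phase peaks (19.7%), and by 18.6% of all tested peaks. Thus the largest gap to all peaks, relative to their share, was that of TTATGTAA.

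D-box letters are rich in A and T, and midnight-phase peaks had a lower GC content than all peaks. The share was therefore compared within bands of GC content. Among peaks of 30 to 40% GC, 23.9% of those with a phase of 15 to before 17 h held a D-box, compared with 15.3% of all peaks in the band. At 40 to 45% GC the shares were 23.8 and 10.0%, at 45 to 50% GC they were 18.7 and 6.46%, and at 50 to 60% GC they were 14.8 and 3.03%. In the latest group, with phases of 19 to before 21 h, the shares in the same bands were 3.70, 11.4, 2.30 and 2.65%, of which only that at 40 to 45% GC exceeded the share of all peaks.

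The 144 peaks with a D-box had a median phase of 16.04 h and a median amplitude of 0.41 on the log2 scale, compared with 17.9 h and 0.37 for the 1121 without. An amplitude of at least 0.5 was reached by 29 of the 144 and by 148 of the 1121. Their median mean normalized counts were 173 and 185.

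**Figure D2:**
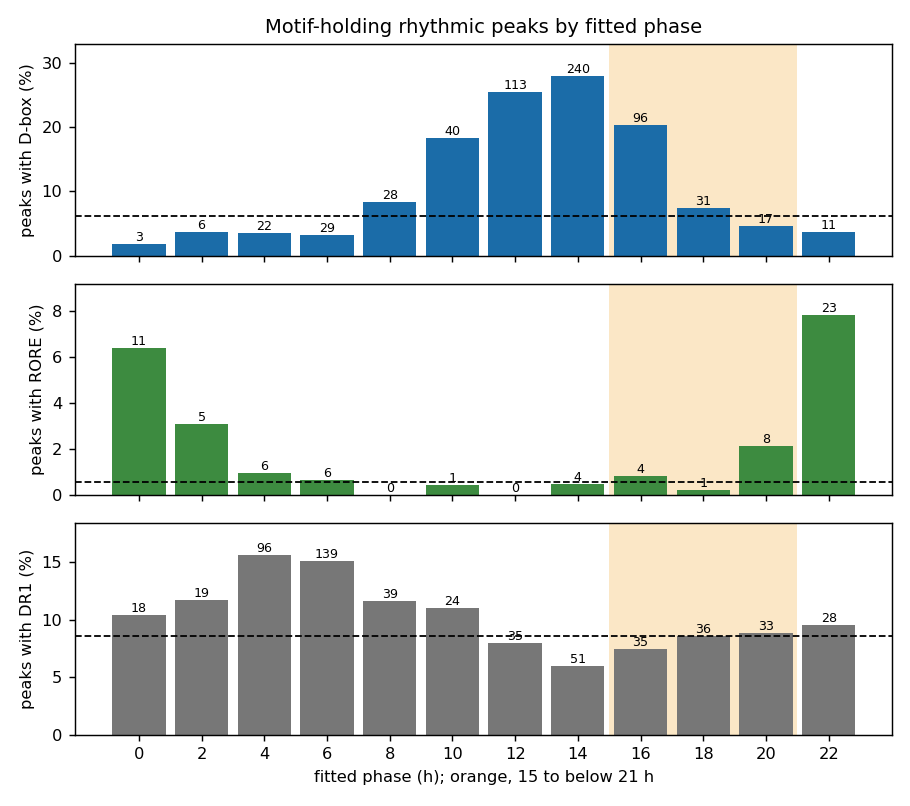
Share (%) of rhythmic peaks that hold a D-box (top), an RORE (middle) or a DR1 (bottom) in the 300 bases at the peak centre (y axes), in bins of the fitted phase in h (x axis) over all midnight-, midday-, dusk- and dawn-phase peaks. Numbers above the bars count the peaks with the motif, dashed lines mark the share among all tested peaks, and the orange area is the midnight window; the D-box share falls through the window from 20.3 to 4.57% while the RORE share is 2.15% at its end and 7.80% in the next bin.

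Within the window, the RORE was most frequent in the last hour. It was held by 13 midnight-phase peaks (1.03%), compared with 0.586% of all tested peaks and 6.19% of dawn-phase peaks, and 6 of the 13 lay among the 181 peaks with a phase of 20 to before 21 h (3.31%). The share did not rise steadily along the phase. It was 4 of 473 peaks (0.846%) at 15 to before 17 h, 1 of 420 (0.238%) at 17 to before 19 h and 8 of 372 (2.15%) at 19 to before 21 h. These counts are small. Beyond the window, 23 of 295 rhythmic peaks with a phase of 21 to before 23 h held an RORE (7.80%).

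DR1 was counted where no more than 2 of its 12 fixed bases mismatched. It was held by 104 midnight-phase peaks (8.22%), close to the 8.61% of all tested peaks, while the share was 14.6% in midday-phase peaks. An RORE can form one copy of a DR1, since both contain AGGTCA. Of the peaks with a D-box, 10 also held a DR1, and 3 midnight-phase peaks held both an RORE and a D-box. None of the 14 motifs searched was found in 685 of the 1265. The E-box CACGTG, bound by CLOCK and BMAL1, was held by 3.64% of midnight-phase peaks, compared with 5.75% of all and 8.33% of midday-phase peaks.

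Promoter elements were rarer than among all peaks, as they were in dusk-phase peaks. SP/KLF letters (GGGGCGGGG) were found in 0.949% compared with 3.90%, ETS letters (CCGGAAGT) in 0.316% compared with 1.38%, CRE letters (TGACGTCA) in 0.0791% (1 peak) compared with 0.694% and the NRF1 letters (GCGC directly followed by ATGCGC) in 0.0791% (1 peak) compared with 0.243%. The dusk-phase shares were 0.594, 0.264, 0.066 and 0%. In midday- and dawn-phase peaks, SP/KLF (2.30 and 1.75%) and ETS letters (0.427 and 0.635%) were also rarer than among all peaks. CRE letters were not (0.908 and 0.952%). Over the whole window, the remaining elements were within 1 percentage point of all peaks. FOX letters (TGTTTAC) were found in 4.82% compared with 3.92%, the glucocorticoid element (AGAACA and its reverse complement with 3 bases between, at most 2 mismatches) in 3.16% compared with 2.49%, EBF letters (TCCC and GGGA with 2 bases between) in 2.45% compared with 2.09%, the NFI element (TTGGC and its reverse complement with 5 bases between, at most 1 mismatch) in 2.06% compared with 2.01%, and the heat shock element (GAA, TTC and GAA with 2 bases between each) in 1.03% compared with 0.707%. The share with a glucocorticoid element also varied with phase. It was 4.23, 3.57 and 1.34% at phases of 15 to before 17, 17 to before 19 and 19 to before 21 h. In dusk-, midday- and dawn-phase peaks it was 6.13, 2.88 and 2.06%.

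Tested peaks can also be chosen by their sequence alone, whether or not the rule selected them. Such sets include the rhythmic peaks with the motif, and the motifs were chosen with earlier results of these data known. Over all 3245 tested peaks with a D-box, the median log2 deviation of a library from the peak's mean was -0.042 at ZT0, then -0.13, -0.0054 and 0.034 at ZT3, ZT6 and ZT9, and 0.083, 0.099, 0.026 and -0.042 at ZT12, ZT15, ZT18 and ZT21. A cosine through these medians had an amplitude of 0.093 and a phase of 13.5 h. For the 306 peaks with an RORE the amplitude was 0.10 and the phase 23.6 h, and for the 4493 with a DR1 the amplitude was 0.042 and the phase 5.33 h. The 1298 peaks with a glucocorticoid element had an amplitude of 0.053 and a phase of 11.9 h. All tested peaks together deviated by 0.0070 at most, at ZT3. The median-of-ratios scaling sets this median near 0, so its flatness is not an observation. When the midnight-, midday-, dusk- and dawn-phase peaks were left out, the 2609 remaining D-box peaks had a phase of 13.5 h at an amplitude of 0.052. Their largest deviation was -0.10 at ZT3, and the highest value was 0.057 at ZT15. The 9695 tested peaks with C/EBP letters were also lowest at ZT3, at -0.052. The 237 remaining RORE peaks had a phase of 23.7 h at an amplitude of 0.066. Peaks just under the limits of the same fit stay in these sets, which were not matched for GC content. The crest of the D-box peaks as a whole thus preceded the midnight window and that of the RORE peaks followed it.

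**Figure D3:**
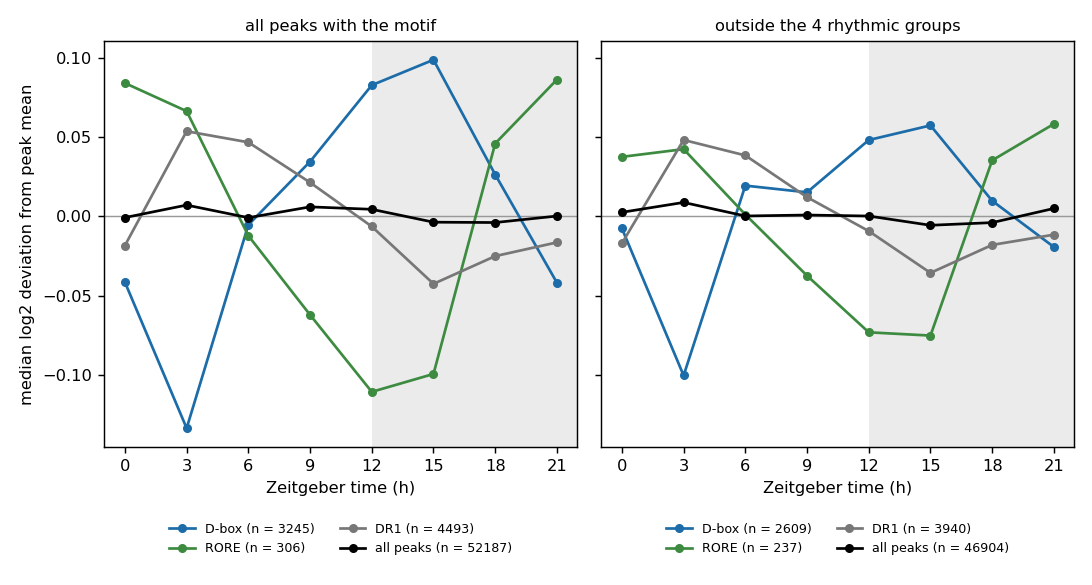
Median over peaks of the log2 deviation of the normalized count from the peak's own mean (y axis) at each Zeitgeber time in h (x axis), for tested peaks chosen by sequence alone and for all tested peaks; left, all peaks with the motif, right, those outside the 4 rhythmic groups. D-box peaks are highest at ZT15 and lowest at ZT3, and RORE peaks are lowest at ZT12 to ZT15. The line of all peaks is held near 0 by the scaling, and grey marks the dark phase.

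Midnight-phase peaks were weaker, less GC-rich and farther from promoters than the peaks at large, and the other rhythmic groups were also weaker. Their median mean normalized count was 184 (quartiles 131 and 295), compared with 313 (171 and 656) over all tested peaks. The medians of midday-, dusk- and dawn-phase peaks lay between, at 295, 235 and 233. The share of peaks selected fell from 4.35% among the weakest tested peaks (mean normalized count of up to 171) to 0.422% among the strongest (at least 656). Median GC content of the 300 central bases was 45.7%, compared with 49.0% of all, 49.3% of midday-phase and 48.0% of dawn-phase peaks. Dusk-phase peaks had much the same GC content as midnight-phase peaks, at 45.3%. Peak width hardly differed, with medians of 930 and 974 bases.

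Within 1 kb of a RefSeq start site lay 118 midnight-phase peaks (9.33%), compared with 19.3% of all tested peaks. The other rhythmic groups had smaller shares still, 5.24% of midday-, 2.77% of dusk- and 4.13% of dawn-phase peaks. By their centre, 734 midnight-phase peaks lay in introns (58.0%, compared with 49.7% of all), 455 were intergenic (36.0%, compared with 40.02%), 34 lay in coding exons, 20 in 5′ UTRs, 15 in 3′ UTRs and 7 in non-coding exons. Dusk-phase peaks were placed much alike, with 57.8% in introns and 38.5% intergenic, while 44.0% of midday- and 49.4% of dawn-phase peaks lay in introns. The median distance to the nearest start site was 22521 bases, compared with 15570 bases over all tested peaks. It was larger still in midday-, dusk- and dawn-phase peaks, at 23011.5, 24741 and 31831.5 bases.

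The peaks clustered along the genome. Another midnight-phase peak lay within 50 kb of 299 members (23.6%), while 10.6% of all tested peaks had a midnight-phase peak that near. At 10 kb the shares were 9.09 and 2.65%. The PPARγ peaks around them were also more often higher at ZT18 than at ZT6. Of 1116 tested peaks within 50 kb that were the nearest neighbours of a member but not members themselves, 810 (72.6%) had a higher normalized count at ZT18. This compares with 49.9% of all tested peaks and 48.6% of those that were not midnight-phase. The scaling brings the share of all tested peaks near an even split. Neighbours can include other rhythmic peaks and peaks just under the limits. The share was 77.9% for neighbours under 5 kb away and 69.1% for those at 5 to 50 kb, where a peak beside several members can count in both. Neighbours come from the same 8 libraries, and adjacent peaks may share fragments, so they are no independent replicate.

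The 1265 peaks had their nearest start site at 1067 genes, of which 922 had 1 midnight-phase peak and 30 had at least 3. Below, peaks are grouped by the role of the gene with the nearest start site, which need not be the gene they act on. Each list is set beside the 2.42% of all tested peaks that were midnight-phase, and its other rhythmic peaks beside the 3.59% that were midday-, 2.90% dusk- and 1.21% dawn-phase.

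Clock genes had 8 midnight-phase peaks among 104 tested (7.69%), at 3 of 19 genes: Arntl, Cry1 and Rora. The list was above the share of all peaks in the other phases too, with 13 midday-phase (12.5%), 9 dusk-phase (8.65%) and 9 dawn-phase peaks (8.65%). Cry1 encodes a repressor of the CLOCK and BMAL1 complex. The stronger of its pair of midnight-phase peaks, in intron 1 (chr10:85160769-85163455), is the one with the RORE shown above. Its normalized counts were 994 at ZT0, then 552, 386 and 405 at ZT3, ZT6 and ZT9, and 458, 597, 996 and 1000.3 at ZT12, ZT15, ZT18 and ZT21. ZT18, ZT21 and ZT0 were high and nearly equal, ZT6 to ZT12 were low, and the ratio of the highest to the lowest library was 2.59, with 95% Wilson intervals of 939 to 1065 for the highest and 350.1 to 426 for the lowest. The amplitude was 0.77 ± 0.07 (standard error from the fit, 8 libraries) and the phase 20.6 h. A weaker peak 2665 bases upstream of Cry1 (chr10:85187487-85187951), named after its values were seen, had a phase of 20.2 h and an amplitude of 0.39.

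Arntl encodes BMAL1, the partner of CLOCK, and is a classical target of ROR and REV-ERB receptors. Of its 12 tested peaks, 4 were midnight-phase and 5 dawn-phase, so that 9 of 12 had their fitted crest between late dark and early light phase. The midnight-phase peak of largest amplitude, in intron 2 (chr7:113249354-113249902), had normalized counts of 153 at ZT0, then 102, 74.7 and 85.7 at ZT3, ZT6 and ZT9, and 71.7, 108, 172 and 158 at ZT12, ZT15, ZT18 and ZT21. Its amplitude was 0.63 and its phase 20.8 h. The other midnight-phase peaks, a further one in intron 2 and 2 upstream of the gene, were named after their values were seen. They had phases of 19.5, 19.4 and 19.9 h and amplitudes of 0.56, 0.52 and 0.42. None of the 4 held an RORE in its central 300 bases.

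At Rora, which encodes a receptor that binds ROREs, 2 of 20 tested peaks were midnight-phase and 3 dusk-phase. The peak in intron 2 with the larger amplitude (chr9:69215974-69216640) had normalized counts of 83.1 at ZT0, then 59.0, 75.7 and 88.7 at ZT3, ZT6 and ZT9, and 119.9, 161, 143 and 93.6 at ZT12, ZT15, ZT18 and ZT21. Its phase of 15.5 h was earlier than those at Cry1 and Arntl. The 2 Rora peaks had phases between 15.5 and 15.6 h, and those at Cry1 and Arntl between 19.4 and 20.8 h.

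**Figure D4:**
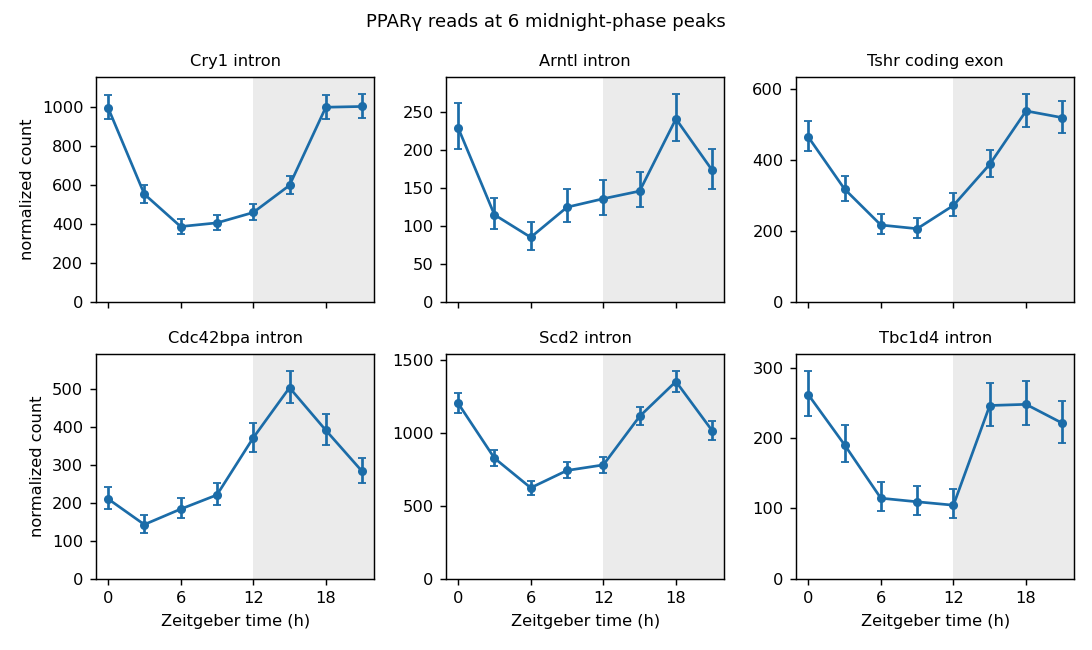
Normalized count (y axis, from 0) at each Zeitgeber time in h (x axis) for a midnight-phase peak inside each of 6 genes. The Arntl panel shows the intron 2 peak with an amplitude of 0.56, which is not the Arntl peak of largest amplitude. Points are single libraries, bars are 95% Wilson intervals that cover counting error only, and grey marks the dark phase; the Cdc42bpa peak is highest at ZT15, and the peaks in Cry1, Arntl, Tshr and Tbc1d4 are still high at ZT0.

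Genes of glucose uptake and insulin signalling had 7 midnight-phase peaks among 212 tested (3.30%): 2 at Tbc1d4, 2 at Foxo3, 2 at Pik3r1 and 1 at Foxo1. The same list had 11 midday-phase (5.19%), 3 dusk-phase and 3 dawn-phase peaks. Tbc1d4 encodes a substrate of AKT that restrains the movement of the glucose transporter GLUT4 to the cell surface. A peak in its intron 1 (chr14:101590939-101591655) had normalized counts of 262 at ZT0, then 190.4, 115 and 109 at ZT3, ZT6 and ZT9, and 105, 246, 248 and 221 at ZT12, ZT15, ZT18 and ZT21. It stood low from ZT6 to ZT12 and high from ZT15 to ZT0, with an amplitude of 0.69 ± 0.15 and a phase of 20.7 h. Another peak in the same intron had an amplitude of 0.41 and a phase of 20.6 h. At Foxo3, a transcription factor restrained by insulin, a peak in intron 2 had an amplitude of 0.37 and a phase of 16.98 h.

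Fatty acid synthesis genes had 4 midnight-phase peaks among 109 tested (3.67%), at Scd2, Fads1, Mlxipl and Elovl5, beside 6 midday-phase (5.50%), 2 dusk-phase and 1 dawn-phase. Scd2 encodes a stearoyl-CoA desaturase, and the peak in its intron 1 (chr19:44292939-44296194) was among the stronger members. Its normalized counts were 1202 at ZT0, then 826, 623 and 742 at ZT3, ZT6 and ZT9, and 779.9, 1113, 1351 and 1014 at ZT12, ZT15, ZT18 and ZT21. The 95% Wilson interval was 1279.6 to 1426 at ZT18, the highest library, and 577 to 673 at ZT6, the lowest. The amplitude was 0.46 and the phase 19.3 h. At Fads1, the delta-5 desaturase, a peak 61 bases from the start site had an amplitude of 0.34 and a phase of 18.01 h. At Mlxipl, which encodes the carbohydrate-responsive factor ChREBP, the values were 0.33 and 20.2 h.

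The lists of lipolysis, fatty acid oxidation and thermogenesis had hardly any midnight-phase peaks. Lipolysis and triglyceride storage had 1 of 139 tested peaks (0.719%) and 11 midday-phase peaks (7.91%, compared with 3.59% of all). Fatty acid uptake and oxidation had 0 of 116, and 4 midday-phase peaks (3.45%), near the share of all. Thermogenesis and brown fate had 1 of 157 (0.637%) and 12 midday-phase peaks (7.64%). The single lipolysis peak lay in intron 9 of Dock6, 4842 bases from the start of Angptl8, which encodes an inhibitor of lipoprotein lipase activity, and had normalized counts of 596 at ZT0, then 396, 332 and 391 at ZT3, ZT6 and ZT9, and 362, 467, 592 and 491 at ZT12, ZT15, ZT18 and ZT21. Its amplitude was 0.37 and its phase 20.2 h. The single thermogenesis peak lay at the start of Esrrg, an orphan nuclear receptor of oxidative metabolism, with an amplitude of 0.32 and a phase of 19.04 h. Peaks of these lists were on the whole stronger than the members, with median mean normalized counts of 670, 487 and 421, and strong peaks were selected less often.

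Adipogenic factors and their co-regulators had 9 midnight-phase peaks among 233 tested (3.86%), beside 6 midday-phase (2.58%), 10 dusk-phase (4.29%) and 2 dawn-phase. The midnight-phase ones include 4 at Nr3c1, the glucocorticoid receptor, and 1 each at Ncor1, Zbtb16, Ebf1 and Klf4. The 4 peaks of Nr3c1 lay upstream of the gene within 37.2 kb and had phases of 15.7 to 15.9 h. The one of largest amplitude (chr18:39575209-39575740) had normalized counts of 86.2 at ZT0, then 59.0, 75.7 and 88.7 at ZT3, ZT6 and ZT9, and 119.9, 167, 156 and 91.5 at ZT12, ZT15, ZT18 and ZT21, with ZT15 and ZT18 about equal and ZT3 lowest. From ZT3 to ZT12 its counts equal those of the Rora peak, on another chromosome, as they do in the deposited table. The other Nr3c1 peaks were named after their values were seen. Ncor1 encodes a corepressor through which REV-ERB receptors act. The peak in its intron 2 had an amplitude of 0.40 and a phase of 16.1 h.

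Extracellular matrix genes had 5 of 113 (4.42%), at Col6a1, Col3a1, Col1a1 and Timp3, and 10 midday-phase peaks (8.85%). Adipokines had 1 of 17, at Retn, which encodes resistin, with an amplitude of 0.33 and a phase of 17.1 h. Stress and heat shock genes, with 7 midday- and 7 dusk-phase peaks, had 1 midnight-phase peak of 72, at Tsc22d3, a gene induced by glucocorticoids, with an amplitude of 0.40 and a phase of 15.5 h. RNA processing genes had 1 of 70, at Hnrnpk, with 0.60 and 19.9 h. Of the markers of other cell types, endothelial genes had 0 of 27 tested peaks (and 8 midday-phase), fibroblast genes 1 of 4, muscle genes 0 of 2 and nerve genes 0 of 2, and leukocyte markers had no tested peak.

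Several genes collected many midnight-phase peaks. Qk, which encodes the RNA-binding protein quaking, had the most, 7 of 23 tested peaks, over 245 kb on chr17. Their phases were 15.2 to 17.6 h and their amplitudes 0.31 to 0.49, and no Qk peak was midday-, dusk- or dawn-phase. The strongest (chr17:10062178-10063134) had normalized counts of 219.6 at ZT0, then 151, 181 and 194 at ZT3, ZT6 and ZT9, and 335, 345, 253 and 221 at ZT12, ZT15, ZT18 and ZT21. It was nearly as high at ZT12 as at ZT15.

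Rps6ka3, which encodes the kinase RSK2, had 6 of 17, all upstream of the gene on chrX, with phases of 17.3 to 20.5 h and amplitudes of 0.33 to 0.60. At 5430421F17Rik the count was 6 of 13, with phases of 17.4 to 21.0 h. Dapk1, a death-associated protein kinase, had 5 of 24 with phases of 18.5 to 21.0 h, and 3 dawn-phase peaks besides. The Dapk1 peak of largest amplitude (chr13:60487952-60489406), 113268 bases upstream, had normalized counts of 714 at ZT0, then 488, 369.7 and 319 at ZT3, ZT6 and ZT9, and 362, 532, 649 and 682 at ZT12, ZT15, ZT18 and ZT21. Arhgap24, a GTPase-activating protein, had 5 of 32, with phases of 15.0 to 15.8 h, and 2 dusk-phase peaks. Sox6, a transcription factor, also had 5 of 32, but their phases spread from 15.2 to 20.2 h. Among these genes, the range of phases was narrowest at Arhgap24 and widest at Sox6.

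The largest amplitude of all was that of a peak in intron 1 of Sorcs2, a sorting receptor (chr5:36285183-36286109). Its normalized counts were 171 at ZT0, then 97.1, 42.7 and 52.2 at ZT3, ZT6 and ZT9, and 57.4, 116, 161 and 153 at ZT12, ZT15, ZT18 and ZT21, the amplitude was 1.01 ± 0.13 and the phase 20.5 h. Next came a peak 30639 bases upstream of Ctsl, the lysosomal protease cathepsin L (chr13:64400762-64401556), with 163 at ZT0, then 107, 68.9 and 63.1 at ZT3, ZT6 and ZT9, and 50.2, 114, 234 and 147 at ZT12, ZT15, ZT18 and ZT21. Its D-box is shown above, and its phase of 20.8 h was later than the median of the D-box peaks. ZT18 stood above every other library there, and the counts at ZT9 and ZT12 were the lowest.

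In intron 14 of Cdc42bpa, a kinase of the cytoskeleton (chr1:180101121-180102165; nearest start site Coq8a), the normalized counts were 210.4 at ZT0, then 143, 183 and 221 at ZT3, ZT6 and ZT9, and 371, 503, 391 and 283 at ZT12, ZT15, ZT18 and ZT21. The crest was at ZT15, the amplitude 0.80 ± 0.07 and the phase 15.7 h. At Ndufb4, a subunit of respiratory complex I, a peak 21864 bases upstream (chr16:37675885-37676580) had 85.2 at ZT0, then 61.9, 67.0 and 106 at ZT3, ZT6 and ZT9, and 121, 210.3, 186 and 88.4 at ZT12, ZT15, ZT18 and ZT21, an amplitude of 0.80 and a phase of 15.5 h. Both belong to the early group and both hold TTATGTAA. The other 8 of the 12 largest amplitudes ranged from 0.81 to 0.90. They lay in an intron of Dmxl1 (nearest start site Tnfaip8, with a D-box), near BC006965, upstream of Drc1, near 1700022A21Rik, in an intron of Gsg1l, upstream of P2ry2, which encodes a purinergic receptor, upstream of Nrgn, and in an intron of Sos2, which encodes a Ras activator. The one at Drc1 followed the cosine closest, with an R2 of 0.97, and that at 1700022A21Rik least, with 0.72.

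The RORE-holding peak of largest amplitude lay in intron 5 of Camta1, a calcium-dependent transcription factor (chr4:151339415-151340305). Its normalized counts were 603 at ZT0, then 364, 209 and 241 at ZT3, ZT6 and ZT9, and 242, 378, 544 and 578 at ZT12, ZT15, ZT18 and ZT21, with an amplitude of 0.79 and a phase of 20.9 h. The peak in intron 5 of Pdhx, a component of the pyruvate dehydrogenase complex, held both an RORE and a D-box, with an amplitude of 0.57 and a phase of 18.4 h. A peak 28728 bases upstream of Hif1a, the hypoxia-inducible factor, had 0.43 and 19.1 h. These motif-holding peaks were named after the values were seen.

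Near start sites, the largest amplitudes after that in the Sos2 intron were at Tshr and Fam50b. Tshr encodes the receptor of thyroid-stimulating hormone, and its peak covers exon 1 (chr12:91400281-91402194), 244 bases from the start site. Its normalized counts were 466 at ZT0, then 319, 217 and 207 at ZT3, ZT6 and ZT9, and 273, 389, 539 and 520.2 at ZT12, ZT15, ZT18 and ZT21. They rose steadily from ZT9 to ZT18 and the cosine took up nearly all of the variance (R2 0.99), with an amplitude of 0.72 ± 0.03 and a phase of 20.1 h. The Fam50b peak had an amplitude of 0.71 ± 0.20 and rested mainly on ZT18, at 227 compared with 126 at ZT15 and 95.6 at ZT21. The start site of Glrx, which encodes the redox enzyme glutaredoxin, followed the cosine as closely as that of Tshr, with an R2 of 0.99 and an amplitude of 0.51. The peaks at Abi3bp, Crybg2, Rps23rg1 and Rrad had amplitudes of 0.54, 0.54, 0.53 and 0.52.

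The Crybg2 peak is also the member with a DR1 free of mismatches, shown above. Its normalized counts were 572 at ZT0, then 429, 309 and 318 at ZT3, ZT6 and ZT9, and 426, 697, 721 and 473 at ZT12, ZT15, ZT18 and ZT21. ZT15 and ZT18 were high and ZT6 and ZT9 low, with a phase of 18.6 h. The peak at Ak4, a mitochondrial adenylate kinase, had an amplitude of 0.43 and a phase of 17.5 h, and that in Dpf3 had 0.47 and 18.3 h.

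The strongest midnight-phase peak by mean count lay in intron 4 of F730035M05Rik (chr12:70230945-70235765), with 2810.0 at ZT0, then 2278, 2099 and 1823 at ZT3, ZT6 and ZT9, and 2379, 3265, 2747 and 2750.0 at ZT12, ZT15, ZT18 and ZT21. Its amplitude of 0.30 was just above the limit. The other 7 of the 8 strongest were near Med12l, Ntrk2, Arhgap10, Rnf125, Zc3h6, Cdh15 and 4933430M04Rik, with mean normalized counts of 1302 to 1663 and amplitudes of 0.32 to 0.41. The peak at Ntrk2, the receptor of brain-derived neurotrophic factor, lay in its 5′ UTR.

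The limits cut through a continuum. The 5 members nearest above the amplitude limit and the 5 peaks nearest below it all had an amplitude of 0.30 after rounding. They included Timp3, Sncaip and H2-M10.5 inside, and Fgfr2, Apoa1 and Gm5737 outside. At the R2 limit, Acadsb, Nrn1 and Usp24 stood just inside and Gm33104, Cinp and Pacsin2 just outside, all with 0.70.

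**Figure D5:**
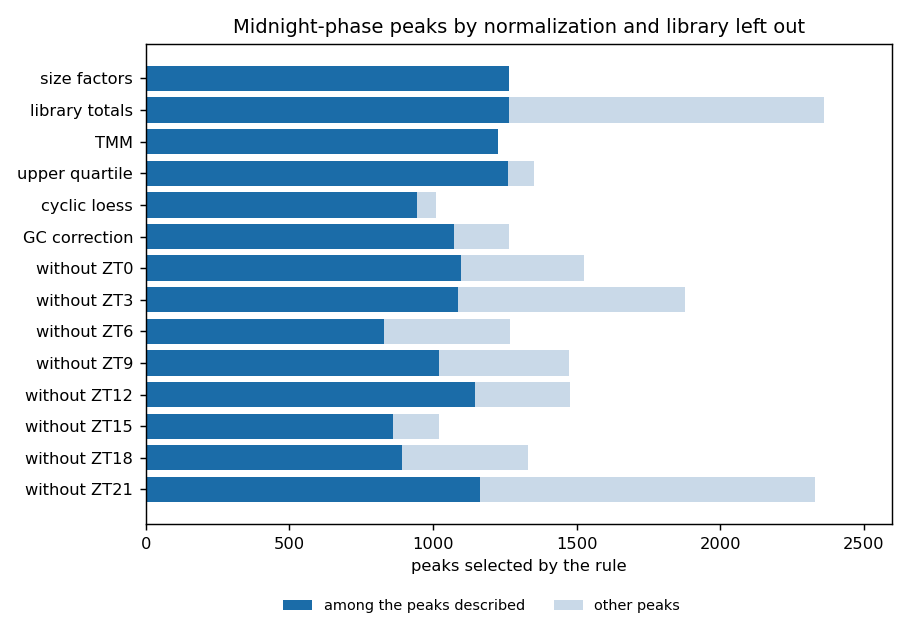
Number of peaks selected by the rule (x axis, from 0) with each way to scale the libraries and with each library left out (y axis). Dark bars count peaks among the 1265 described and light bars other peaks; division by library totals selects 2361, including all 1265, and leaving out ZT21 selects 2331.

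How many peaks the rule selects depended on the scaling and on single libraries. Dividing by library totals alone raised the number to 2361, all 1265 included. TMM gave 1228 (1225 shared), upper-quartile factors 1353 (1261 shared), cyclic loess 1012 (945 shared) and a correction for GC content 1264 (1073 shared). Leaving out ZT21 gave 2331 peaks, of which 1164 were among the 1265, and leaving out ZT6 kept the fewest of them, 830.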

How the data were processed

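The authors mapped reads to mm10 with BWA-MEM 0.7.17, called peaks with MACS2 2.1.2, retained those significant in at least 6 of the 8 libraries, and used HTSeq-count 1.99.2 to count reads. How duplicate reads were handled is not given in the sources used here. The deposited values are these raw counts of reads per peak, whole numbers without normalization. The ZT12 input library was not used here.

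From the counts, median-of-ratios size factors and the 24-h cosine were calculated in Python 3.11.15 (numpy 2.4.6, pandas 2.3.3). Values called normalized counts are counts divided by these factors. The background test was edgeR 4.0.16 (quasi-likelihood F test of the cosine and sine terms, TMM, Benjamini-Hochberg over 66066 peaks, 5 residual degrees of freedom) in R 4.3.3. As time points are not replicated, departures from the cosine are its spread, and p-values measure only the spread among these 8 pooled samples. DESeq2 1.42.0 and limma 3.58.1 served as alternatives. JTK-cycle was not run here. Wilson intervals at 95% treat each count as a share of its library total and cover counting error only.

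The nearest start site was taken from 45756 curated transcripts of RefSeq GRCm38.p6 for each peak, and the peak centre set its place in an exon, intron or intergenic region. Sequence was available for 52187 of the 52193 tested peaks and for every midnight-phase peak, and 14 motifs were searched on both strands.

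The members, gene lists, motifs and tests were chosen with earlier results of these data known. Peaks were named as the 12 of largest amplitude, the 8 of highest mean normalized count, the 8 of largest amplitude within 1 kb of a start site, up to 3 per gene list, the 6 of largest amplitude with the fewest DR1 mismatches, those of the genes with the most members, and the 5 on either side of the amplitude and R2 limits. The 5 genes with the most members became 6 because of ties. Peaks named for a D-box or an RORE, and further peaks at clock and receptor genes, were added after their values were seen, as were the phase groups. One peak that this rule names is not reported here.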

Additional observations from a re-analysis of the deposited data

How the results depend on the processing

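The number of midnight-phase peaks was 1265 and lay between 1012 and 1823 with TMM, upper-quartile factors, cyclic loess, GC correction, a mean raw count of at least 50 or none, and an R2 of at least 0.6. It was 2361 with library totals, 553 with a mean raw count of at least 200, 2398 and 177 with an amplitude of at least 0.2 and 0.5, 727 and 200 with an R2 of at least 0.8 and 0.9, 796 with a phase of 16 to before 20 h, and 1976 with a period of 21 h (1038 shared). With single libraries left out it ranged from 1022 (without ZT15) to 2331 (without ZT21), and the median amplitude of the same peaks from 0.36 to 0.41. The edgeR cosine called 8842 peaks (1731 with a midnight and 3910 with a midday phase) and 2243 at a threshold of 0.01. With library totals it called 8948, of which 3499 were midnight and 2332 midday. DESeq2's likelihood ratio test called 9975 of 64785, with 1281 adjusted p-values not given.

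The share with a DR1, 8.22%, was 1.42% with at most 1 mismatch, 0.0791% with none and 21.7% in whole peaks. The share near a start site, 9.33%, was 21.5% within 5 kb, 31.7% within 10 kb and 14.1% with all RefSeq transcripts. Neighbours higher at ZT18 rose from 72.6 to 82.8% with library totals, where all tested peaks stood at 62.6%. Alternatives for the D-box were chosen after seeing the data. Its share, 11.4%, was 30.1% in whole peaks, compared with 20.7% of all, and 9.00 (without ZT3) to 13.4% (without ZT6) with libraries left out. The causes of these shifts were not tested. Over the amplitudes of the 129 named peaks and 13 alternatives, 1617 of 1677 values stayed within the 95% counting interval of the amplitude, 60 moved further and in 0 did the phase shift by more than 6 h. The named peaks met or nearly met the amplitude and R2 limits in these same libraries. A phase shift of that size was therefore unlikely, and nothing is read from the 0. No paired analysis was possible because each time point has 1 library.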
